A study of Rattus norvegicus with 29 samples.

Results

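The genes described here belong to the walls of small brain blood vessels. They are 9 rat genes of endothelium, of the blood-brain barrier and of pericytes, taken by symbol: Cldn5, Esam, Ocln, Pecam1, Flt1, Kdr, Vwf, Slc2a1 and Rgs5. They make up 9 of the 10411 genes that the array annotation names, and 12 probe sets report them. A probe set is the group of short DNA probes that measures 1 transcript. Of the 12 probe sets, 5 passed the filter on low signals and were tested, 1 each for Cldn5 (1374104_at), Esam (1388703_at), Slc2a1 (1370848_at), Ocln (1378753_at) and Rgs5 (1369957_at). The other 7, which include every probe set of Flt1, Kdr, Pecam1 and Vwf, lay below the filter.

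RNA of the rat basolateral amygdala, the part of the amygdala where a cue becomes linked to a painful event, was measured on 29 one-colour arrays. The groups were fear conditioning under the inhaled anaesthetic isoflurane (5 arrays), fear conditioning without it (5), isoflurane alone (5), the painful stimulus alone (5) and baseline controls (9). The 4 treated groups were sampled at 6 h, and no time is given for baseline. Strain, sex and age of the rats are not given in the sources used here. Rat numbers are given for 15 arrays, those of the 2 conditioning groups and of pain, so p-values measure the spread between arrays, part of which may be technical. The labels name a labelling kit for 14 arrays, those of isoflurane and baseline. In conditioning under isoflurane, conditioning or pain against baseline, and in conditioning under isoflurane against isoflurane, the kit label and the treatment cannot be told apart.

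Brain capillaries are lined by endothelial cells whose tight junctions close the gaps between neighbours, so that nutrients have to cross through transporters. Claudin-5 (Cldn5) is the main claudin of these junctions and occludin (Ocln) another of their membrane proteins, while Esam and Pecam1 are adhesion molecules at endothelial contacts. Slc2a1 encodes GLUT1, which carries glucose across the barrier and is also made by astrocytes. Flt1 and Kdr encode the receptors VEGFR1 and VEGFR2 of vascular endothelial growth factor, and Vwf encodes von Willebrand factor, which endothelium stores and releases and which tethers platelets. Rgs5, a regulator of G-protein signalling, is a widely used marker of pericytes, the contractile cells wrapped around capillaries.

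The promoters of 3 members are shown because Cldn5 correlated by rank with Slc2a1 between arrays of a group, as described further on, and its correlation with Rgs5 was near 0. Cldn5 also correlated by rank with Ocln, whose window is not shown for the reason given below. Whether promoter matches bear on these correlations was not tested. Each line gives the 250 bases before the annotated gene start, 5′ to 3′ on the strand of the gene, from RefSeq (build GRCr8). Cldn5 is chr11:95718599-95718848 (minus strand), Slc2a1 chr5:138002272-138002521 (plus) and Rgs5 chr13:84380827-84381076 (plus). Capitals mark matches, on either strand, to GGGCGG (the GC box), CCAAT, GGAA (the core bound by ETS factors), ACGTG (the core of the hypoxia response element) and TATAAA.
Cldn5: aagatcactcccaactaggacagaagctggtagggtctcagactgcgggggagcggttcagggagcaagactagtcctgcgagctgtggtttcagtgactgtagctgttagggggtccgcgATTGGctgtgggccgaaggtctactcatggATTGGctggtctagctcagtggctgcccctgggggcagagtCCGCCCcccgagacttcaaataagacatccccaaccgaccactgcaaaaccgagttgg
Slc2a1: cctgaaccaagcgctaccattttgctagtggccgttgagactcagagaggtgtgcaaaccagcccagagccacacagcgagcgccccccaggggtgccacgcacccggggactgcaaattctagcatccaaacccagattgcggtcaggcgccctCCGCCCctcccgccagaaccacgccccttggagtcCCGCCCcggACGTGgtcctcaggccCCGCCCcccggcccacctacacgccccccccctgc
Rgs5: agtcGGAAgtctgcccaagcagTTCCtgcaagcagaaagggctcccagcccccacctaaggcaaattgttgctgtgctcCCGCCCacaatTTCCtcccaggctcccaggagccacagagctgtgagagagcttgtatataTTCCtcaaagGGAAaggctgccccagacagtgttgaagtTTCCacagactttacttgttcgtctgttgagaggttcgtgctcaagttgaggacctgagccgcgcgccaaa

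The Cldn5 window held 2 CCAAT matches and 1 GC box, and no GGAA. Slc2a1 held 3 GC boxes and 1 ACGTG. Rgs5 held 6 GGAA matches and 1 GC box. The GC box was thus in all 3 windows. Over the 250 bases before the start given for 33469 rat genes, GGGCGG is found in 30.5%, CCAAT in 34%, GGAA in 93.2%, ACGTG in 16.6% and TATAAA in 12.9%. Where 2 matches could overlap, both were counted. Of the 9 genes, 6 were matched to a promoter, and Esam, Pecam1 and Vwf were not. For 3 of the 6, Ocln, Flt1 and Kdr, the start used lies inside the annotated gene, so their windows are not shown.

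All values are log2 of the deposited signal after quantile normalization, which gives each array the same distribution, with a floor of 16 signal units (4 on the log2 scale). The filter was the 40th percentile of mean signal, 7.26. Values of different probe sets were not set against each other, since a probe set's signal depends on its probes. Where signals of several genes are summed on the linear scale to compare arrays, the brightest probe sets weigh most. Differences were tested with limma, with p-values adjusted by Benjamini-Hochberg over all 9520 probe sets tested and a threshold of 0.05.

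One array stood apart. The correlation of pain replicate 3 with the other arrays had a median of 0.907, against 0.950 to 0.969 for the rest, and its deposited median signal was 292.2, against 210.7 to 249.95. All 11 neuron and all 12 astrocyte marker genes on the array were above the filter. Traces of neighbouring tissue were uneven: the summed signal of 2 choroid plexus genes was 15928 on baseline replicate 1 and at most 2093 on any other array, and the 9 meningeal and fibroblast genes summed to 17398 on pain replicate 1, against a baseline median of 3871.

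Cldn5, the tight-junction claudin, had the largest difference from baseline of the 5 genes tested. Its values were 9.08, 9.00, 8.52, 8.38 and 8.68 after conditioning under isoflurane, 8.57, 9.16, 8.17, 8.57 and 8.79 after conditioning, 7.89, 8.53, 8.64, 9.06 and 8.59 after isoflurane and 8.85, 8.24, 8.69, 8.56 and 8.70 after pain. The 9 baseline arrays ran from 7.91 to 8.56, with a median of 8.31. All 5 arrays of conditioning under isoflurane lay above the baseline mean of 8.29 ± 0.19 (SD, n = 9), and 3 of them lay above the highest baseline array, so the groups overlapped. In the other groups 4 of 5 arrays lay above the highest baseline array after conditioning, 4 after pain and 3 after isoflurane. The difference was 0.44 (SE 0.16, 95% interval 0.12 to 0.76, 1.36-fold) for conditioning under isoflurane minus baseline and did not pass the threshold (limma adjusted p = 0.641). Conditioning minus baseline was 0.36 (SE 0.16, limma adjusted p = 0.464), pain minus baseline 0.31 (SE 0.16, limma adjusted p = 0.563) and isoflurane minus baseline 0.25 (SE 0.16, limma adjusted p = 0.983). The isoflurane arrays were the widest spread, with the lowest of all 29 arrays (replicate 1) among them. Without that array isoflurane minus baseline was 0.41, and without isoflurane replicate 4 it was 0.12. Conditioning minus baseline was 0.23 without conditioning replicate 2.

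**Figure D1:**
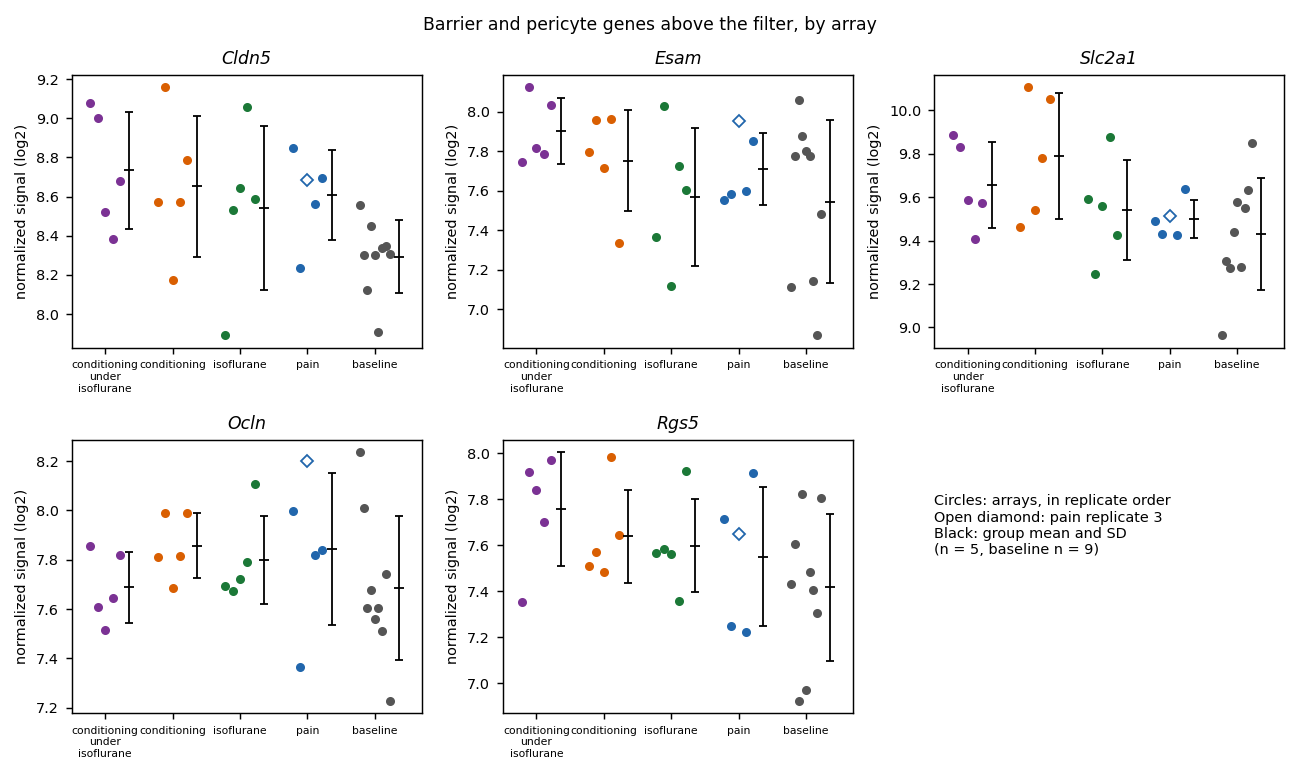
Normalized log2 signal (y axis) of the 5 genes above the filter, by group (x axis). Points are arrays in replicate order, the open diamond is pain replicate 3, and black marks give the group mean and SD; every treated group overlaps the 9 baseline arrays for each gene, and the Cldn5 baseline arrays reach 8.56 while single treated arrays reach 9.16.

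Slc2a1, the glucose transporter, stood highest after conditioning. It measured 9.46, 10.11, 9.54, 9.78 and 10.05 there, 9.89, 9.83, 9.59, 9.41 and 9.57 after conditioning under isoflurane, 9.59, 9.25, 9.56, 9.88 and 9.43 after isoflurane and 9.49, 9.43, 9.51, 9.43 and 9.64 after pain. Baseline arrays ran from 8.96 to 9.85, with a median of 9.44. All 5 conditioning arrays were above the baseline mean of 9.43 ± 0.26 (SD, n = 9), 2 of them above every baseline array, and the pain arrays were the most alike, with an SD of 0.09 (n = 5). Conditioning minus baseline was 0.36 (SE 0.13, 95% interval 0.10 to 0.61, 1.28-fold; limma adjusted p = 0.417). Conditioning minus pain, which sets the whole conditioning procedure against the painful stimulus alone, was 0.29 (SE 0.14, limma adjusted p = 0.551). The difference from baseline was 0.23 (SE 0.13) for conditioning under isoflurane, 0.11 (SE 0.13) for isoflurane and 0.07 (SE 0.13) for pain. Without isoflurane replicate 4 the isoflurane value was 0.03, and without baseline replicate 1 the pain value was 0.01. With arrays centred on their medians in place of quantile normalization, pain minus baseline was -0.06, beside a shift of -0.11 in the median of all probe sets tested.

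Ocln and Esam, the other 2 junction and adhesion genes that could be tested, differed less. Ocln measured 7.86, 7.61, 7.52, 7.64 and 7.82 after conditioning under isoflurane, 7.81, 7.99, 7.69, 7.82 and 7.99 after conditioning, 7.69, 7.67, 7.72, 7.79 and 8.11 after isoflurane and 8.00, 7.36, 8.20, 7.82 and 7.84 after pain, against 7.23 to 8.24 at baseline (median 7.61). No treated array lay outside the baseline range. The top of that range is a single array, baseline replicate 1, which also had the highest choroid plexus sum. A link between these was not tested. The next baseline array was at 8.01, and pain replicate 3 (8.20) and isoflurane replicate 5 (8.11) exceeded it. Its differences from baseline were 0.0031 for conditioning under isoflurane (SE 0.14, 95% interval -0.28 to 0.28), 0.17 for conditioning, 0.11 for isoflurane and 0.16 for pain, and limma adjusted p-values were 0.695 or higher. Without pain replicate 3, which had the highest Ocln value of its group, pain minus baseline was 0.07, and without pain replicate 2 it was 0.28. With single arrays left out, conditioning under isoflurane minus baseline ran from -0.05 to 0.07, conditioning minus baseline from 0.11 (without baseline replicate 9) to 0.24 and isoflurane minus baseline from 0.03 (without isoflurane replicate 5) to 0.18. The upper end of each of these ranges was reached without baseline replicate 1.

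Esam measured 7.75, 8.13, 7.82, 7.79 and 8.03 after conditioning under isoflurane, 7.79, 7.96, 7.72, 7.96 and 7.33 after conditioning, 7.37, 8.03, 7.12, 7.72 and 7.61 after isoflurane and 7.55, 7.58, 7.95, 7.60 and 7.86 after pain. Baseline arrays spread from 6.87 to 8.06 (median 7.77), the widest of the groups with an SD of 0.41, and a single treated array, of conditioning under isoflurane, exceeded their highest. The difference from baseline was 0.36 (SE 0.17, limma adjusted p = 0.762) after conditioning under isoflurane, 0.21 after conditioning, 0.02 after isoflurane and 0.16 after pain. Without pain replicate 3 the pain value was 0.10. Without baseline replicate 8 it was 0.08 after pain and 0.12 after conditioning, and the isoflurane value ran from -0.09 (without isoflurane replicate 2) to 0.14 (without isoflurane replicate 3). Conditioning under isoflurane minus isoflurane was 0.33 (SE 0.20, limma adjusted p = 0.998).

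Rgs5, the pericyte marker, measured 7.35, 7.92, 7.84, 7.70 and 7.97 after conditioning under isoflurane, 7.51, 7.57, 7.48, 7.98 and 7.64 after conditioning, 7.56, 7.58, 7.56, 7.36 and 7.92 after isoflurane and 7.72, 7.25, 7.65, 7.22 and 7.91 after pain. Baseline arrays ran from 6.92 to 7.82 (median 7.43), and 3 of 5 arrays of conditioning under isoflurane exceeded them all. The difference from baseline was 0.34 (SE 0.16, limma adjusted p = 0.743) after conditioning under isoflurane, 0.22 after conditioning, 0.18 after isoflurane and 0.13 after pain. Without conditioning replicate 4 the conditioning value was 0.14, without isoflurane replicate 5 the isoflurane value was 0.10 and without pain replicate 5 the pain value was 0.04. Of 19 further pericyte and smooth-muscle genes on the array, 16 lay below the filter, among them the pericyte markers Pdgfrb, Kcnj8 and Abcc9 with mean values of 5.78, 6.67 and 5.94.

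**Figure D2:**
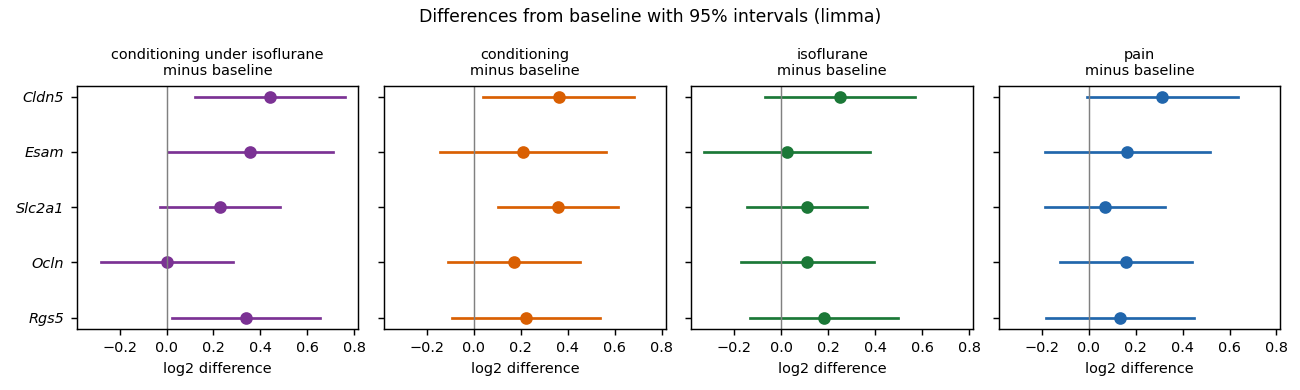
Log2 difference from baseline (x axis) with its 95% interval from limma, for the 5 genes above the filter (rows) in each treated group (panels). Intervals lie wholly above 0 for Cldn5, Esam and Rgs5 in conditioning under isoflurane and for Cldn5 and Slc2a1 in conditioning, before adjustment; no adjusted p passed.

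Counted together, 0 of 5 members passed in any comparison. Among all 9520 probe sets, 0% passed in conditioning under isoflurane, conditioning or pain minus baseline, in conditioning minus pain, in conditioning under isoflurane minus conditioning or minus isoflurane, in the interaction and in the F test over the 5 groups, and 0.0105% (1 probe set, not a member) in isoflurane minus baseline. At an unadjusted p under 0.05, limma counted 3 of 5 members (Cldn5, Esam, Rgs5), all higher, in conditioning under isoflurane minus baseline, where 6.5% of all probe sets reached it and 3.25% did so with a higher level. Esam lay near the cut (limma unadjusted p = 0.0469). With the processing changed or 1 array left out, it stayed under 0.05 in 22 of 37 fits, Cldn5 in 36 and Rgs5 in 30. In conditioning minus baseline it counted 2 of 5 (Cldn5, Slc2a1), both higher, beside 10.1% of all probe sets and 5.12% with a higher level. It counted 0 of 5 in isoflurane minus baseline, where 5.38% of all reached it (2.64% higher), and 0 of 5 in pain minus baseline, where 8.96% did (4.33% higher). In conditioning minus pain 1 member, Slc2a1, reached it with a higher level, beside 9.04% of all (4.74% higher). Its limma unadjusted p was 0.04997, and it stayed under 0.05 in 15 of 38 such fits. In conditioning under isoflurane minus isoflurane 0 of 5 did, beside 4% (1.88% higher). The 5 that passed the filter are not all 9 genes, and these counts describe the members only.

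The median difference from baseline over the 5 genes was 0.34 after conditioning under isoflurane, 0.22 after conditioning, 0.11 after isoflurane and 0.16 after pain. The median over all tested probe sets was within 0.01 of 0 in each. All 5 genes had a mean above baseline in each treated group, where 49.2% to 51.1% of all probe sets did; the 4 comparisons share the same 9 baseline arrays. Centred on array medians, 4 of 5 were above baseline after pain, Slc2a1 being the exception. Genes with all 5 arrays above the baseline mean were Cldn5 and Esam in conditioning under isoflurane, Slc2a1 and Rgs5 in conditioning, and Esam in pain, against 10.1%, 8.29% and 7.21% of all probe sets; in isoflurane none of the 5 did, against 6.75%.

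For Cldn5, Esam and Rgs5 the group means ran, from high to low, conditioning under isoflurane, conditioning, then pain and isoflurane (in the other order for Rgs5), then baseline. For Slc2a1 the order was conditioning, conditioning under isoflurane, isoflurane, pain, baseline, and for Ocln conditioning, pain, isoflurane, conditioning under isoflurane, baseline. Neighbours in each order differed by less than the SD within groups: the widest step was 0.25 for Cldn5, between isoflurane and baseline, where the pooled SD was 0.29.

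Whether the anaesthetic changes the response to conditioning is asked by the interaction. This is the effect of conditioning under the anaesthetic (read against isoflurane alone) minus that of conditioning alone (read against baseline). The direct difference between the conditioning groups also holds any effect of isoflurane itself, so it does not ask this alone. Conditioning under isoflurane minus conditioning was 0.15 for Esam, 0.12 for Rgs5, 0.08 for Cldn5, -0.13 for Slc2a1 and -0.17 for Ocln, with SEs of 0.14 to 0.20 and a limma adjusted p of 0.999 for each; 0 of 5 members had an unadjusted p under 0.05, beside 3.69% of all probe sets (1.79% higher). The interaction was -0.28 for Ocln (95% interval -0.71 to 0.15), -0.24 for Slc2a1 (-0.63 to 0.14), -0.17 for Cldn5, -0.06 for Rgs5 and 0.13 for Esam, with 0 of 5 members at an unadjusted p under 0.05, beside 4.79% of all probe sets (2.38% higher). Each of the 5 intervals of the interaction holds values as large as the 0.44 of Cldn5 against baseline, so these arrays do not show that the effects are alike.

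The 7 probe sets below the filter report the VEGF receptors, Pecam1, Vwf and a second Ocln probe set. Signals this low are close to background, and several arrays sit at the floor: 10 of 29 for the second Ocln probe set (1398281_at), 8 for Flt1 1377113_at, 2 for Vwf and 1 for Pecam1. In an unfiltered limma fit none of the 7 passed in any comparison (lowest adjusted p = 0.541).

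Kdr (VEGFR2, 1367948_a_at) measured 6.90, 6.80, 7.08, 6.46 and 6.63 after conditioning under isoflurane, 6.84, 6.79, 6.57, 6.13 and 6.84 after conditioning, 6.30, 5.93, 6.07, 6.21 and 6.66 after isoflurane and 6.39, 6.52, 6.30, 6.87 and 5.97 after pain, against 5.89 to 7.12 at baseline (median 6.29). Conditioning under isoflurane minus isoflurane was 0.54 (SE 0.21, unfiltered limma adjusted p = 1), and 3 of the 5 arrays of conditioning under isoflurane lay above the highest isoflurane array. Against baseline the differences were 0.31 after conditioning under isoflurane and -0.22 after isoflurane.

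Pecam1 (1371545_at) measured 6.66, 6.79, 6.43, 6.41 and 6.37 after conditioning and 6.69, 6.07, 5.58, 6.14 and 6.80 after conditioning under isoflurane, against 4.00 (the floor) to 6.72 at baseline (median 5.96). Every conditioning array was above the baseline mean, and conditioning minus baseline was 0.75 (SE 0.31, 95% interval 0.11 to 1.38, unfiltered limma adjusted p = 0.541). The baseline array at the floor, replicate 3, is followed by one at 5.17. Values ran from 5.30 to 6.44 after isoflurane and from 5.50 to 6.24 after pain.

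Vwf (1389234_at) measured 6.17, 6.39, 6.23, 6.12 and 6.41 after conditioning under isoflurane, the tightest group, with an SD of 0.13. It was 6.74, 6.43, 4.00, 5.94 and 6.20 after pain, against 4.20 to 6.70 at baseline (median 6.37). It ran from 4.13 to 6.69 after conditioning and from 4.00 to 6.39 after isoflurane. The pain value at the floor is that of pain replicate 3. Pain minus baseline was -0.08 (SE 0.48) with that array and 0.40 (SE 0.47) without it, in unfiltered limma fits.

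Flt1 (VEGFR1) has 3 probe sets that did not follow each other across the 29 arrays once group means were subtracted (Pearson r 0.18, 0.02 and -0.17 for the 3 pairs). Of these, 1369087_at measured 6.97, 6.52, 4.12, 6.59 and 6.78 after pain, against 5.84 to 7.05 at baseline (median 6.39). It ran from 5.84 to 6.82 after conditioning under isoflurane, 5.25 to 7.07 after conditioning and 6.25 to 7.07 after isoflurane. The low pain value is again pain replicate 3, the lowest of all 29 arrays for this probe set after normalization. Its deposited signal was 40.3, while conditioning replicate 4, deposited at 37.8, was 5.25 after normalization. With pain replicate 3, pain minus baseline was -0.22 (SE 0.34) and without it 0.30 (SE 0.25). Mean deposited signals, with every array kept, were 95.06 for pain and 82.91 for baseline. The other Flt1 probe sets had group means of 6.07, 6.31, 6.16, 6.03 and 5.99 for 1370492_a_at and 5.30, 5.16, 4.89, 5.21 and 4.69 for 1377113_at, in the order conditioning under isoflurane, conditioning, isoflurane, pain and baseline. In normalized values the sign of the difference after pain thus turned with the array that stood apart for Flt1 1369087_at and for Vwf. For Flt1 1370492_a_at pain minus baseline was 0.04 with that array and 0.10 without it, and for Flt1 1377113_at 0.52 with it and 0.29 without it. The 5 tested genes did not share this: pain replicate 3 was at or above its group mean for each of them.

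**Figure D3:**
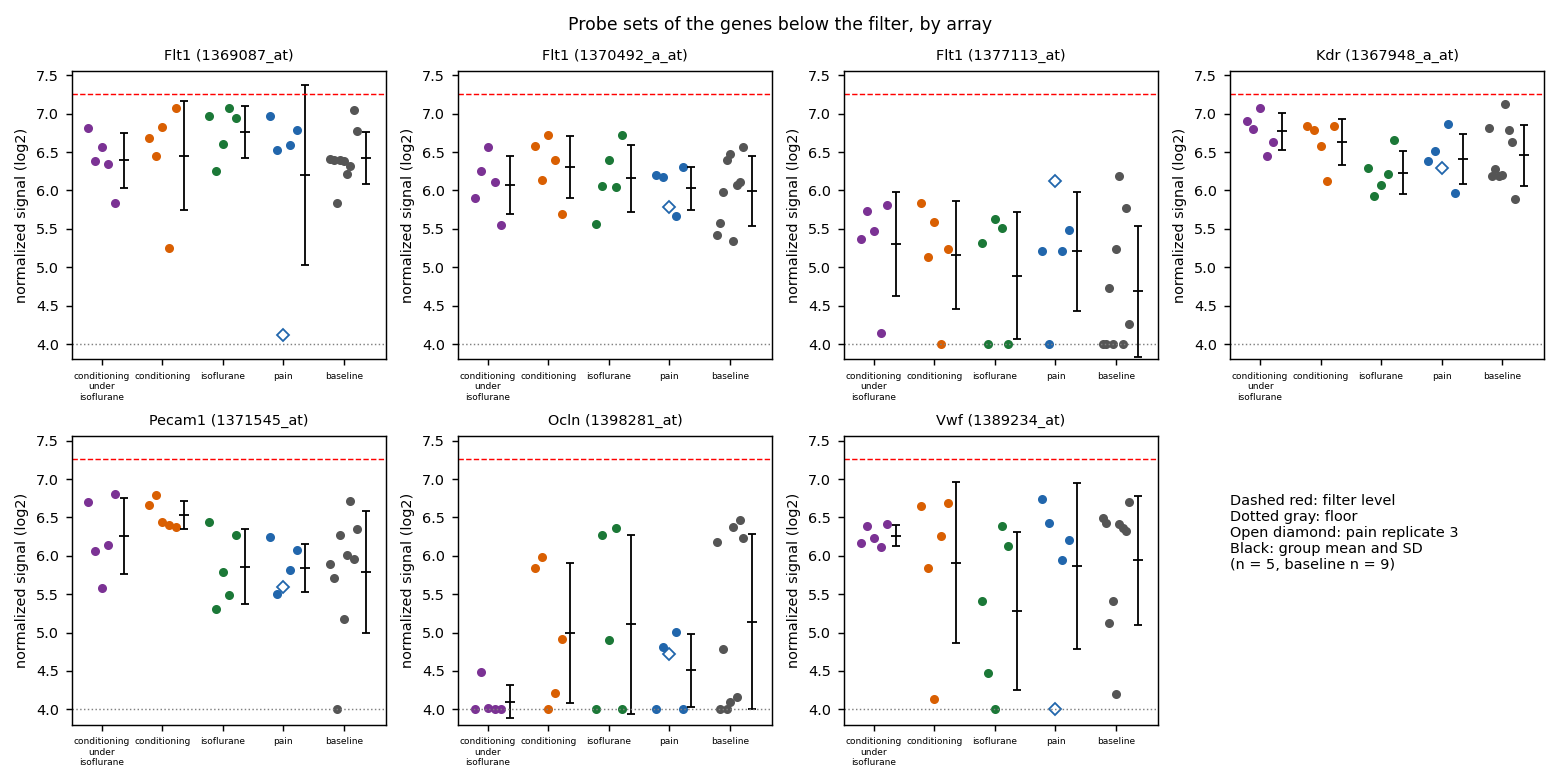
Normalized log2 signal (y axis) of the 7 probe sets below the filter, by group (x axis), with the filter level of 7.26 dashed and the floor of 4 dotted. Points are arrays, the open diamond is pain replicate 3, and black marks give the group mean and SD; that array is the lowest of 29 for Flt1 1369087_at (4.12) and at the floor for Vwf.

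The second Ocln probe set did not follow the first (Pearson r -0.05 over 29 arrays, group means subtracted). On conditioning under isoflurane arrays it was at or near the floor throughout (4.00, 4.48, 4.02, 4.00 and 4.00), against 4.00 to 6.47 at baseline, and its difference of -1.04 (SE 0.49, unfiltered limma adjusted p = 0.797) depends on the floor. The probe set above the filter gave 0.0031 for the same comparison.

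**Figure D4:**
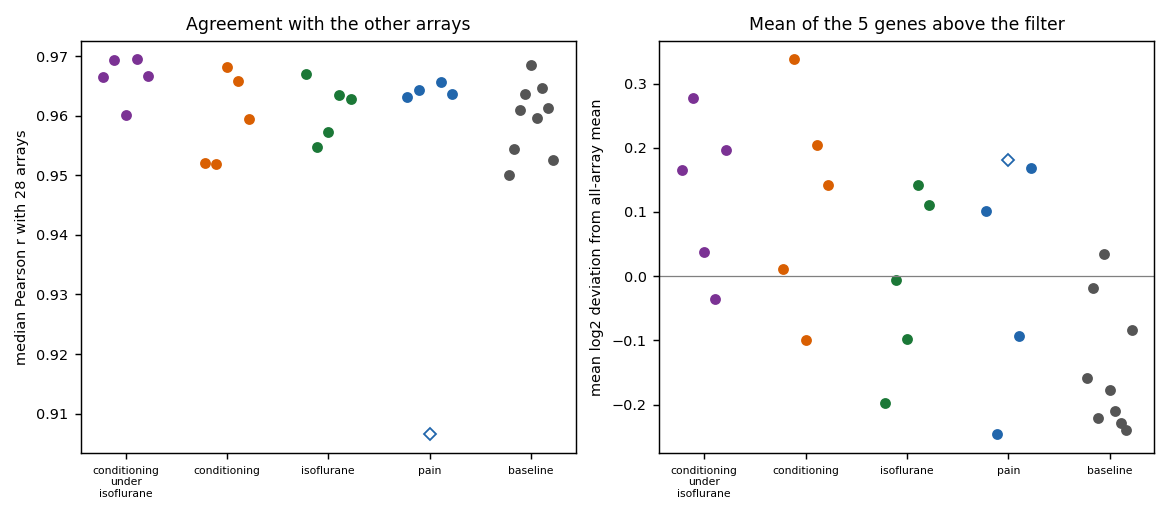
Left, the median Pearson correlation of each array with the others (y axis) by group (x axis), with pain replicate 3 (open diamond) at 0.907 and the rest at 0.950 to 0.969. Right, the mean over the 5 genes above the filter of the log2 value minus the gene's mean over all arrays, where pain replicate 3 lies among the higher pain arrays.

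How far the 5 genes moved together between arrays of a group differed from pair to pair. After group means were subtracted, 7 of their 10 pairs correlated positively over the 29 arrays, with a median Pearson r of 0.07, beside -0.00015 over all pairs of tested probe sets. Over the 15 arrays for which no kit is named all 10 pairs were positive (r from 0.03 to 0.81, median 0.22), and over the 14 arrays of isoflurane and baseline 4 of 10 were (-0.64 to 0.28, median -0.05). The median over all pairs of tested probe sets was not computed within the 15 or the 14 arrays. Cldn5 correlated with Slc2a1 (r = 0.458, permutation p = 0.0248, adjusted over the 10 pairs 0.124; Spearman rho = 0.568, permutation p = 0.00419, adjusted 0.0209). It also correlated with Ocln (r = 0.450, permutation p = 0.00692, adjusted 0.0692; rho = 0.563, permutation p = 0.00205, adjusted 0.0205). After adjustment the rank correlations passed the threshold and the linear ones did not. The share of all probe sets that correlate this strongly with Cldn5 was not counted. Genes outside the members reached a higher r with Cldn5, up to 0.738 (Lnc215). Leaving out the 2 arrays farthest from the Cldn5 median gave r = 0.480 for Slc2a1 and 0.506 for Ocln, and leaving out pain replicate 3 gave 0.458 and 0.456. Slc2a1 and Ocln had r = -0.222 with each other (permutation p = 0.264; rho = 0.010, permutation p = 0.961). That value turned to 0.184 without the 2 arrays farthest from the Slc2a1 median, and it was 0.394 over the 15 arrays and -0.643 over the 14. Rgs5 had r = 0.082 with Cldn5 (permutation p = 0.658; rho = 0.148, permutation p = 0.447).

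The arrays divide here by kit label and by treatment group alike, so the kit label and the treatment cannot be told apart in this split. For Cldn5 and Slc2a1, r was 0.814 over the 15 arrays of conditioning under isoflurane, conditioning and pain, for which no kit is named, and 0.148 over the 14 arrays of isoflurane and baseline. For Cldn5 and Ocln it was 0.652 over those 15 and 0.283 over those 14. Both values were higher in the set of 15 than in the set of 14. The difference between the sets was not tested.

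**Figure D5:**
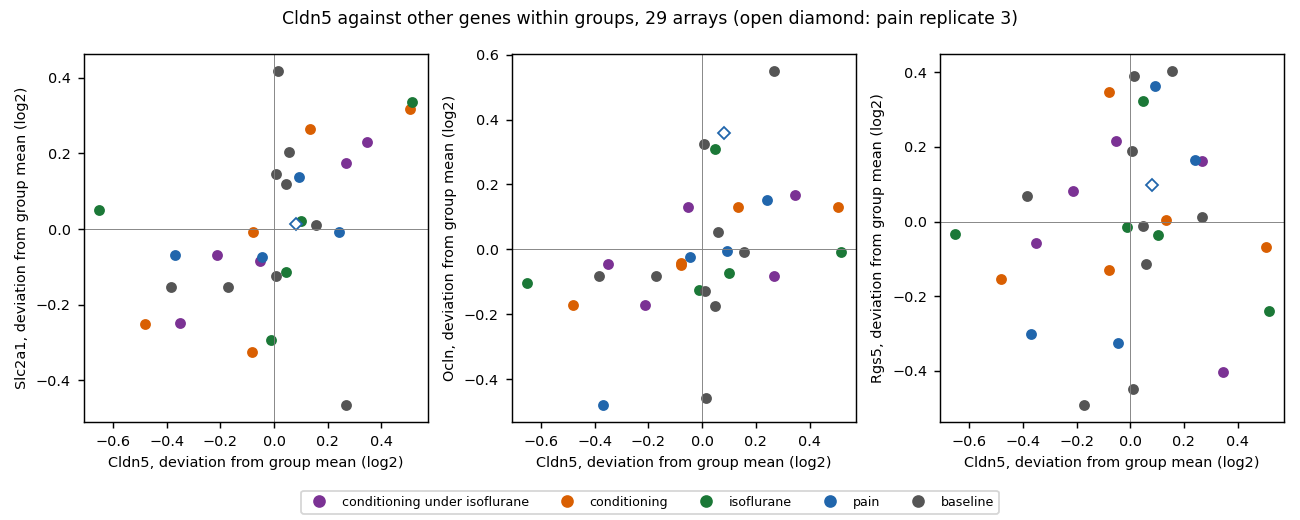
Deviation of Cldn5 from its group mean (x axis, log2) against that of Slc2a1, Ocln and Rgs5 (y axes, log2), with 1 point per array, coloured by group and pain replicate 3 as an open diamond. Pearson r is 0.458 for Slc2a1, 0.450 for Ocln and 0.082 for Rgs5 over 29 arrays.

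Of all genes, those nearest to the mean of the 5 members across the 29 arrays, group means subtracted, were Ccnl2 (Pearson r = 0.737), Hnrnpu (0.712), Hus1 (0.688), Prrc2c (0.684), Lnc215 (0.668), Col5a2 (0.662), Plekha6 (0.661), Pcnx1 (0.660), Rsrp1 (0.660) and Srrm2 (0.658). Nearest to Cldn5 alone were Lnc215 (0.738), the chemokine gene Cxcl12 (0.713), Rpl11 (0.709), Wnk1 (0.673) and Rsrp1 (0.651). Nearest to Rgs5 were Prkce (0.574), Bpifa5 (0.569), Cds1 (0.563), Zfp46 (0.555) and Ltc4s (0.544). None of them is on any of the vascular or cell-type lists, and as the highest values out of a whole array they are a description.

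The other genes of the vessel wall gave no call either: in 7 lists of junction, endothelial, transport, growth-factor, pericyte, basement-membrane and activation genes, limma called 0 genes in any comparison. Blood-brain barrier transport, the list next to Slc2a1, had 14 genes tested. Of these 14, 11 were higher than baseline after conditioning under isoflurane (median 0.11), 10 after conditioning (0.11), 9 after isoflurane (0.07) and 10 after pain (0.13). In conditioning minus baseline 4 of the 14 had an unadjusted p under 0.05, all higher, beside 5.12% of all probe sets, namely the transporters Slco1c1 (0.37, thyroid hormone), Mfsd2a (0.36, lipids), Slc7a1 (0.34, cationic amino acids) and Slc3a2 (0.20, the heavy chain of amino-acid transporters), with limma adjusted p of 0.417 to 0.465; in each of the other 3 comparisons with baseline 1 of 14 did. Of 11 basement-membrane genes 7 were higher after conditioning under isoflurane (median 0.06), 9 after conditioning (0.15), 9 after isoflurane (0.07) and 6 after pain (0.11), and in conditioning minus baseline Sparc (0.63), Itgb1 (0.49) and Col4a2 (0.26) had the lowest p. Of 9 genes of VEGF and angiopoietin signalling 7 were higher after conditioning under isoflurane (median 0.06), 8 after conditioning (0.14), 5 after isoflurane (0.06) and 5 after pain (0.11), with Epas1 (0.28), Apln (0.38) and Vegfb (0.25) first in conditioning minus baseline. Over all 7049 genes tested 48.6% to 50.9% were higher than baseline, with medians within 0.01 of 0.

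Of 7 further junction genes 6 were above baseline after conditioning under isoflurane (median 0.08), 5 after conditioning (0.11), 5 after isoflurane (0.03) and 3 after pain (-0.0031). Among them Ctnnd1, the p120 catenin of adherens junctions, differed from baseline by 0.43 after conditioning under isoflurane, 0.52 after conditioning, 0.50 after isoflurane and 0.42 after pain (limma adjusted p 0.415 to 0.722), while Ctnnb1, beta-catenin, differed by -0.36 after conditioning under isoflurane (limma adjusted p = 0.754). The 12 further endothelial genes were divided, with 5 higher and 7 lower in conditioning under isoflurane minus baseline (median -0.03), 8 higher in conditioning minus baseline (median 0.12), 6 in isoflurane minus baseline (0.0019) and 8 in pain minus baseline (0.06). Of 5 activation and coagulation genes 3 were above baseline after conditioning under isoflurane (median 0.02), 3 after conditioning (0.06), 4 after isoflurane (0.11) and 4 after pain (0.30). Plat, the tissue plasminogen activator, which neurons also make, differed by 0.53 after conditioning under isoflurane, 0.67 after conditioning, 0.72 after isoflurane and 0.37 after pain (limma adjusted p 0.692, 0.415, 0.724 and 0.609). F3, tissue factor, differed by -0.48 after conditioning under isoflurane (limma adjusted p = 0.730), and Tfpi, its inhibitor, by -0.28 after conditioning (limma adjusted p = 0.480). The 3 pericyte and smooth-muscle genes besides Rgs5 that were tested were Notch3, Mylk and Acta2. Acta2, smooth-muscle actin, differed by 0.48 after pain (limma adjusted p = 0.490). The summed signal of these 3 genes reached 1649 on pain replicate 3, the array that stood apart, against a pain median of 1181. The Acta2 difference without that array is not given here.

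In whole tissue, a different number of vessel cells and a different amount of RNA per cell cannot be told apart. Astrocytes, whose end-feet cover the same vessels, also stood above baseline: of 12 markers, none of them called, 11 were above baseline after conditioning under isoflurane, 11 after conditioning, 9 after isoflurane and 10 after pain, with medians of 0.13, 0.17, 0.07 and 0.14. In the same order 4, 6, 3 and 4 of the 12 had a limma unadjusted p under 0.05, all higher. Of all probe sets 3.25%, 5.12%, 2.64% and 4.33% did so with a higher level. The lowest, median and highest summed signals of these 12 genes were 49370, 54845 and 56471 after conditioning under isoflurane, 52178, 53810 and 62467 after conditioning, 48612, 50863 and 56014 after isoflurane, 51204, 53515 and 54704 after pain and 43312, 48667 and 54137 at baseline. The summed signals of the 5 members were 1642, 1911 and 2140 after conditioning under isoflurane, 1628, 1990 and 2368 after conditioning, 1570, 1695 and 2069 after isoflurane, 1500, 1834 and 1913 after pain and 1453, 1610 and 1791 at baseline. Slc2a1, which astrocytes also make, weighs most in the sum of the members, with a mean log2 value of 9.56. Conditioning replicate 2 was the highest array and baseline replicate 6 the lowest for both sums. Other cell types also stood above baseline in places: of 9 oligodendrocyte markers 5 were higher after conditioning under isoflurane (median 0.00036), 9 after conditioning (0.25), 6 after isoflurane (0.07) and 5 after pain (0.01), and of 8 microglia and macrophage markers 4 (0.05), 7 (0.17), 3 (-0.03) and 7 (0.04) in the same order. Of 11 neuron markers 8 were higher after conditioning under isoflurane (0.15), 7 after conditioning (0.04), 8 after isoflurane (0.03) and 7 after pain (0.03). A limma unadjusted p under 0.05, always higher, was reached by 0, 4, 1 and 0 oligodendrocyte markers in that order. For microglia and macrophages the counts were 0, 0, 0 and 1, and for neurons 1, 1, 1 and 0. The part of these cell types in the members' values was not tested. The red-cell gene Hbb, a beta-globin, differed by -1.19 in pain minus baseline (limma adjusted p = 0.0704), beside a median of 0.16 for the members. Of the 2 red-cell genes tested 1, Hbb, was lower after pain and 1, Slc4a1, was higher (median -0.43).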

How the data were processed

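The authors deposited 1 linear intensity value per probe set and array, scaled array by array (a mean trimmed by 2% at both ends is 500.084 to 500.117 on all 29). The software and genome build behind this step are not given in the sources used here. Of 15923 probe sets, 57 controls were left out. Of the remaining 15866, 12783 carry 1 symbol, 312 several and 2771 none, and 12748 symbols were matched by gene identifier to RefSeq (GRCr8), with 0 changed. Signals were quantile normalized, raised to 16, put on the log2 scale and filtered at the 40th percentile of the mean (7.26), which left 9520. limma 3.58.1 in R 4.3.3 (lmFit, eBayes with trend) fitted 1 mean per group on all arrays, with 7 contrasts of 2 groups, the interaction and an F test; the method was tested on simulated data. Correlations used 100000 permutations within groups. The number of arrays limits the precision.

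The members and the 14 other lists were chosen with earlier results of these data known. Every member probe set is named; from each other list at most 4 genes with the lowest unadjusted p in a comparison are named, and the genes most like the members are the 10 (or 5) with the highest r; pericyte markers below the filter are named with their levels. Alternatives covered scaling, floor, pseudocount, filter, array weights, a replicate block, fits of 2 groups and each array left out.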

Additional observations from a re-analysis of the deposited data

Results flagged for a closer look

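Within groups of 5 or 9 arrays, the highest and lowest values of each of the 12 probe sets were examined, 60 sets in all, for a gap to the nearest array that is large beside the group's range (Dixon's ratio; critical value 0.710 for 5 arrays). The rule picked 4, and chance alone picks about 1 in 20. Flt1 1369087_at on pain replicate 3 was 4.12, against 6.52 to 6.97 on the other pain arrays (ratio 0.842); this is the array that stood apart. Flt1 1377113_at on conditioning under isoflurane replicate 4 was 4.14, against 5.36 to 5.81 (ratio 0.734), close to the floor. Ocln 1378753_at on isoflurane replicate 5 was 8.11, against 7.67 to 7.79 (ratio 0.732), the only one of the 4 above the filter; without that array isoflurane minus baseline was 0.03, where all arrays gave 0.11. Ocln 1398281_at on conditioning under isoflurane replicate 2 was 4.48, against 4.00 to 4.02 (ratio 0.957), so the gap is measured from values at the floor.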

How the results depend on the processing

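Across 1664 recomputed values of the 5 tested members (differences and F tests), 0 passed the threshold in limma; the lowest adjusted p was 0.263, for Slc2a1 in conditioning minus baseline without conditioning replicate 3. Of 1483 differences 31 changed sign, all of them small and uncalled. Of 63 recomputed values of members below the filter 0 passed. Counts over all probe sets moved more. Isoflurane minus baseline, with 1 call, had 0 under median centring, under the replicate block and with only the 2 groups fitted. Pain minus baseline, with 0, had 10 under median centring and 4 with a filter at the 70th percentile. The F test, with 0, had 2 without a filter. Of the 12 member probe sets 7 were below the filter, 0 without one and 11 at the 70th percentile, where a single member was left and the agreement between members could not be computed. With each array left out in turn, isoflurane minus baseline ranged from 0 to 1 (0 without isoflurane replicates 1, 3, 4 or 5), pain minus baseline from 0 to 6 (6 without baseline replicate 3), conditioning minus pain from 0 to 3 (3 without pain replicate 4), the F test from 0 to 1, and the number of arrays standing apart from 0 (without pain replicate 3) to 1.

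Replicate numbers are shared between groups but do not pair the arrays: deviations of 50 same-numbered pairs correlated at 0.0015 on average (-0.24 to 0.26), others at 0.00056, and 6 of 25 arrays correlated best with their own number. With the replicate block, Esam was 0.18 in conditioning under isoflurane minus baseline and 0.03 in conditioning minus baseline, Slc2a1 was 0.34 and 0.48, and 0 members were called. Replicate numbers 6 to 9 occur at baseline alone. Under the block these arrays do not enter the differences, which then rest on baseline replicates 1 to 5. With all 9 baseline arrays and no block, Esam was 0.36 and 0.21, and Slc2a1 0.23 and 0.36.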
